A study of Drosophila melanogaster with 12 samples.

Results

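The larval serum proteins and fat body proteins of *Drosophila* were examined as a set of 6 genes, found by exact symbol among the 9500 genes of the deposited table: *Lsp1alpha*, *Lsp1beta*, *Lsp1gamma*, *Lsp2*, *Fbp1* and *Fbp2*. All 6 were present in every library, and none was removed by the filter on low values. Fat bodies were taken from female larvae in the wandering stage of the last instar, reared on 4 diets, and profiled by RNA-seq, with 3 biological replicates per diet. The control diets held 0.3 M fructose (CFD) or 0.3 M glucose (CGD), and the high-sugar diets held 1.7 M fructose (HFD) or 1.7 M glucose (HGD). Every group was the offspring of the w1118 stock crossed to UAS-Dcr2; r4-GAL4, so all larvae carried a fat body GAL4 driver and a Dicer-2 transgene. The growth notes also speak of RNA interference against InR, but the cross they name holds no such transgene. The fat bodies were released by shearing and collected by centrifugation, which can carry along cells of other tissues.

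Hexamerins are large proteins that the fat body makes in bulk and secretes into the hemolymph before metamorphosis. LSP1 is assembled from the related alpha, beta and gamma subunits, whereas LSP2 is built from its own subunit. Near pupariation the steroid hormone ecdysone prompts the fat body to take the hexamerins back up by endocytosis, and the stored amino acids serve adult development. Fbp1 is the receptor for that uptake. Fbp2 is an abundant fat body protein related to alcohol dehydrogenase and is not known as a receptor, so among the 6 genes the word receptor applies to *Fbp1* alone.

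The genes lie apart in the BDGP6.54 annotation, which is not the build named in the processing notes. *Lsp1alpha* (FBgn0002562) is on X from 12490291 to 12492982, *Lsp1beta* (FBgn0002563) on 2L from 898500 to 901316 and *Lsp1gamma* (FBgn0002564) on 3L from 66430 to 68995, all on the plus strand. *Lsp2* (FBgn0002565) is on 3L from 12129393 to 12131869 on the plus strand. *Fbp1* (FBgn0000639) is on 3L from 14094589 to 14098053 on the minus strand, and *Fbp2* (FBgn0000640) is on 2L from 9426784 to 9427917 on the plus strand. The coding lengths of the Lsp1 subunits are alike, at 2448, 2367 and 2316 bases for alpha, beta and gamma. *Lsp2* has 2103 coding bases, *Fbp1* 3087 and *Fbp2* 768. An antisense RNA gene overlaps *Lsp2* by 2096 bases and *CG42847* overlaps *Fbp2* by 48 bases on the same strand. Reads of these overlaps, and reads shared by the related Lsp1 subunits, are uncertain, since neither the strand setting nor the treatment of multiply mapped reads is given in the sources used here.

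The values are the authors' normalized counts, for which the fructose and the glucose libraries had each been brought to their own common size. The reads recovered from them, in the 9500 listed genes only, amounted to 3484912 to 11134936 per library, the lowest in HFD replicate 2. They are not the sequencing depth, since the paper lists more mapped reads than this for every library. The ribosomal RNA gene *CR41548* took 8.67% of the signal in HFD replicate 2 and at most 0.306% elsewhere. Totals without ribosomal RNA, used below as an alternative, left out only *CR41548*, *mt:lrRNA* and *mt:srRNA*. *CR41583*, looked at beside them but kept in those totals, took 4.91% to 12.9%, most in HGD replicate 1. Also kept were *CR40677*, with up to 5.44% in HGD replicate 1, and *CR40546*, with up to 5.21% in HFD replicate 2. All 9 fat body markers were measured in every library. The summed signal of muscle markers (15 of 17 measured) was 0.191% to 0.380% of the total on CFD, 0.384% to 0.394% on HFD, 0.0879% to 0.235% on CGD and 0.320% to 0.444% on HGD. Hemocyte markers (7 of 8 measured) summed to 0.0475% to 0.0908%, midgut markers (10 of 14) to 0.0126% to 0.191%, salivary gland markers (6 of 6) to 0.0209% to 0.412% and cuticle markers (4 of 7) to 0.00772% to 0.0281%. No measured marker was at 0 in any library. Muscle markers moved with the high-sugar diets, with 5 of 15 called higher on HFD and 12 of 15 on HGD. Of all genes 9.4% were called higher and 9.93% lower on HFD, and 16.7% higher and 12.9% lower on HGD. Of the 10 midgut markers 5 were called lower and 1 higher on HFD, and 4 lower and 2 higher on HGD. Of the 7 hemocyte markers 5 were called lower and 1 higher on HFD, and 6 lower and 1 higher on HGD. The part of these tissues in the results below was not tested. In such bulk samples fewer cells of a type and less RNA per cell cannot be told apart.

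The 6 genes were among the most abundant transcripts of the tissue. By mean value *Lsp2* ranked 1, *Fbp1* 3, *Lsp1beta* 4, *Lsp1gamma* 7, *Fbp2* 9 and *Lsp1alpha* 10 of 9500 genes. Levels were next divided by the length of the merged exons, over the 8994 genes with at least 200 exon bases. *Lsp2* then ranked 2 with a mean of 263978 per kilobase, behind the odorant-binding protein gene *Obp99b* at 401079. *Fbp2*, the shortest of the set, moved up to rank 4 with 169664 per kilobase. *Lsp1beta* followed at rank 5 with 127312, *Fbp1* at rank 6 with 120091, *Lsp1gamma* at rank 8 with 84558 and *Lsp1alpha* at rank 11 with 55029 per kilobase.

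Together the 6 genes took 18.7% to 34.4% of all signal, and this total did not separate the diets. On CFD their summed share was 24.7%, 27.6% and 25.7% in replicates 1 to 3, and on HFD it was 29.6%, 18.7% and 19.3%. On CGD it was 23.1%, 25.6% and 34.4%, and on HGD 19.3%, 26.4% and 27.9%. HFD replicate 1 lay above all CFD libraries and the other two HFD libraries below them, while the HGD libraries ranged from below all CGD libraries to within their range. With fructose the mean share was 26.0% ± 1.45 in the controls and 22.5% ± 6.13 on HFD (SD, n = 3 each). With glucose it was 27.7% ± 5.92 in the controls and 24.6% ± 4.57 on HGD (SD, n = 3 each). The differences between these means were smaller than the SD of the more variable diet in each pair. The 4 storage protein genes alone took 16.8% ± 1.51 with control and 16.3% ± 4.75 with high fructose, and 18.6% ± 5.88 with control and 17.8% ± 3.49 with high glucose (SD, n = 3 each), again with overlapping libraries. CGD replicate 3 had the highest value of its diet for every one of the 6 genes.

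**Figure D1:**
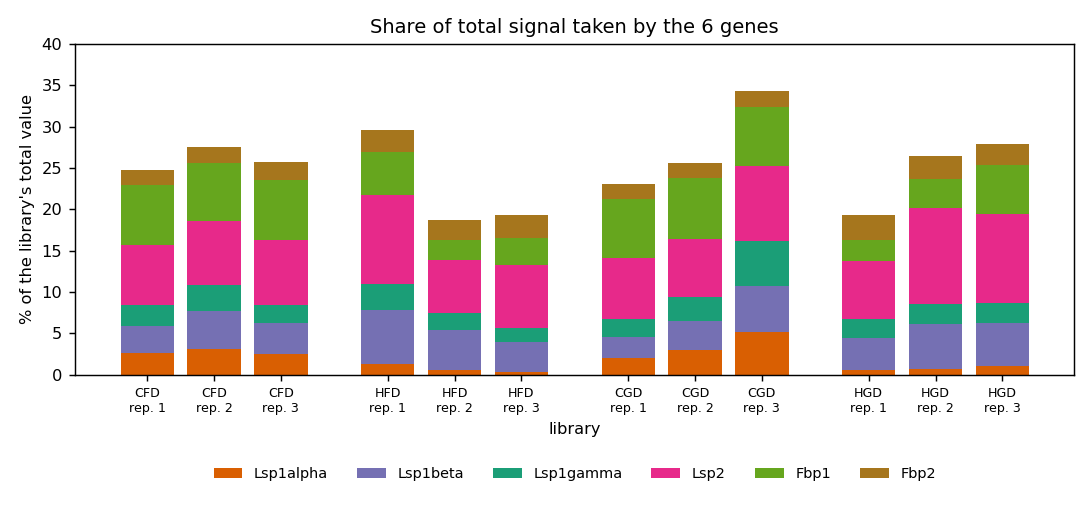
Share of each library's total deposited signal taken by the 6 genes, in percent, as stacked bars for the 12 libraries grouped by diet. The full bars run from 18.7% (HFD replicate 2) to 34.4% (CGD replicate 3) and overlap between diets, while the *Lsp1alpha* segment at the base is smaller on both high-sugar diets.

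The single genes differed in direction. Their shares of the signal separated high-sugar from control libraries with either sugar for 3 of the 6 genes, a comparison within a library that needs no scaling between libraries. *Lsp1alpha* took 1.97% to 5.17% in the 6 control libraries and 0.353% to 1.32% in the 6 high-sugar libraries. *Fbp1* took 7.06% to 7.35% in the 6 controls, a narrow range that included CGD replicate 3, and 2.49% to 5.93% on high sugar. *Fbp2* took 1.76% to 2.15% in the controls and 2.44% to 3.07% on high sugar. Over all genes the share was lower without overlap for both sugars in 14.1% and higher in 6.55%, against 2 and 1 of the 6 members.

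Among the Lsp1 subunits, *Lsp1alpha* fell on both high-sugar diets. Its value on CFD was 192330, 231390 and 166480 in replicates 1 to 3, and on HFD 104200, 50049 and 25949. Every HFD library was below every CFD library, and the HFD libraries were spread more widely than the CFD libraries. The mean fell from 196733 ± 32678 to 60066 ± 40076 (SD, n = 3 each). The log2 fold change was -1.92 (SE 0.54, adjusted p = 0.0232 by limma). *Lsp1alpha* was thus the only member called for fructose, 1 of 6, where 19.3% of all genes were called, 9.93% lower and 9.4% higher. *Lsp1alpha* and *Fbp1* were lower and *Fbp2* higher without overlap between HFD and CFD, as were 19.1% and 19% of all genes. The call was lost when CFD replicate 1 (adjusted p = 0.0688 by limma), CFD replicate 2 (0.0734), HFD replicate 2 (0.0697) or HFD replicate 3 (-1.43, 0.0983) was left out. Over all alternatives its adjusted p ran from 0.00356 to 0.0983.

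With glucose the same subunit was lower again. Its value was 142850, 209840 and 535020 on CGD and 54316, 66830 and 93399 on HGD in replicates 1 to 3. No HGD library reached the lowest CGD library, and CGD replicate 3 stood above its 2 companions. The mean was 295903 ± 209772 for CGD and 71515 ± 19958 for HGD (SD, n = 3 each). The log2 fold change was -1.85 (SE 0.54, adjusted p = 0.0197 by limma). It was again 1 of 6 members called, where 29.6% of all genes were called with glucose, 12.9% lower and 16.7% higher. It was lower and *Fbp2* higher without overlap between HGD and CGD, as were 20.8% and 24% of all genes. The adjusted p by limma rose to 0.0597 without CGD replicate 3 (-1.31), to 0.0553 without HGD replicate 1 and to 0.0554 without HGD replicate 2, and over all alternatives it ran from 0.00247 to 0.141.

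**Figure D2:**
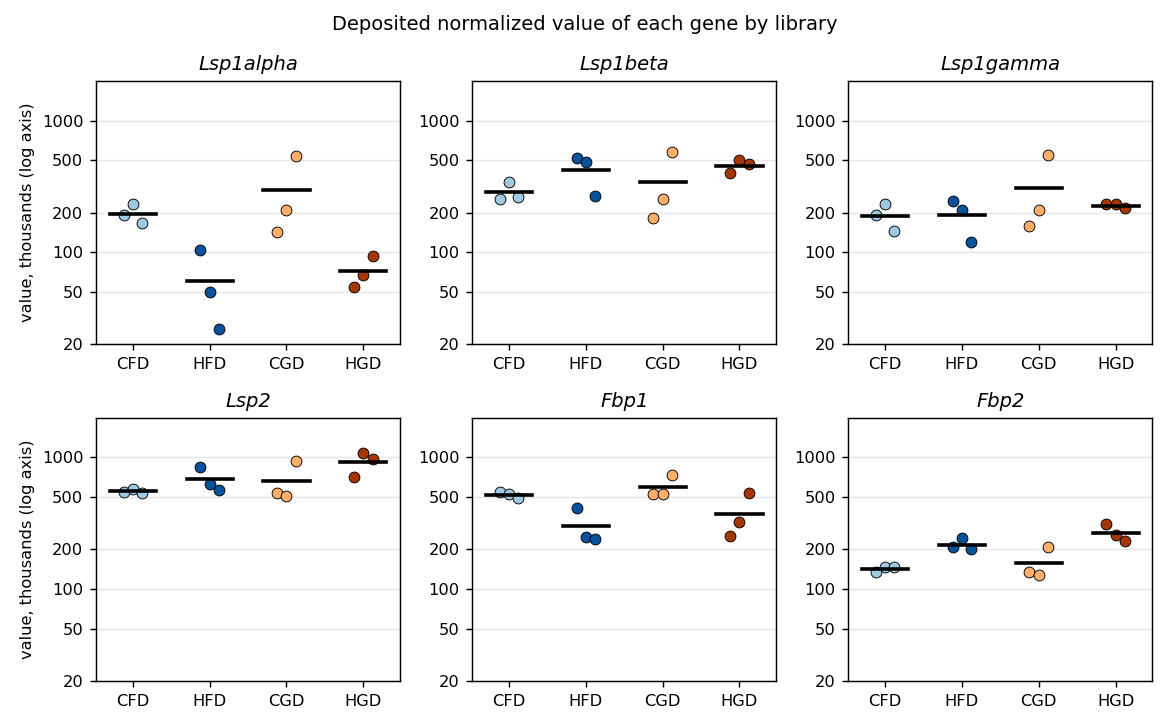
Deposited normalized value on a log axis, in units of 1000, of each of the 6 genes in the 3 libraries of each diet, with a line at the mean. All HFD and HGD points of *Lsp1alpha* lie below their controls and all those of *Fbp2* above them, whereas *Lsp1beta*, *Lsp1gamma* and *Lsp2* overlap.

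*Lsp1beta* had higher means on high sugar that did not pass the test. Its value was 253580, 339300 and 260870 on CFD and 515730, 483310 and 266990 on HFD. On CGD it was 183370, 254830 and 579090, and on HGD 399600, 498810 and 465070. HFD replicates 1 and 2 exceeded all CFD libraries and HFD replicate 3 did not, while all HGD libraries exceeded CGD replicates 1 and 2 but stayed below CGD replicate 3. The log2 fold change was 0.52 (SE 0.51) with fructose and 0.59 (SE 0.51) with glucose, with adjusted p of 0.517 and 0.407 by limma. Averaged over the sugars it was 0.56 (SE 0.36, adjusted p = 0.234 by limma), and without CGD replicate 3 it was 0.79 with an adjusted p of 0.0455.

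*Lsp1gamma* had no call, and its fitted differences were small beside their errors. Its value was 193040, 230660 and 144330 on CFD and 244900, 207950 and 119950 on HFD, and these ranges overlapped widely. On CGD it was 157250, 210000 and 552480, and on HGD 231300, 232090 and 215790, so the HGD libraries were close together and lay within the spread of CGD. Its difference on the log2 scale was -0.02 (SE 0.49) with fructose and -0.22 (SE 0.49) with glucose, with adjusted p of 0.983 and 0.770 by limma. The 95% interval over both sugars ran from -0.87 to 0.62 on the log2 scale, so a change of moderate size in either direction remains possible. The sign of these values depended on single libraries.

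The composition of the LSP1 transcripts differed between control and high-sugar libraries. Values were divided by coding length and set as a percentage of the 3 subunits within each library. *Lsp1alpha* made up 29.2%, 28.0% and 28.3% on CFD and 28.6%, 30.2% and 31.1% on CGD. It made up 11.6%, 6.50% and 6.05% on HFD and 7.63%, 8.07% and 11.6% on HGD. The 6 control libraries thus lay between 28.0% and 31.1%, including CGD replicate 3 with its high absolute levels, and the 6 high-sugar libraries between 6.05% and 11.6%. The *Lsp1beta* percentage was higher in turn, with 34.9% to 45.8% in the controls and 58.0% to 64.9% on high sugar. The *Lsp1gamma* percentage overlapped, at 25.9% to 34.0% in the controls and 28.4% to 34.3% on high sugar. These percentages are a description, with no test.

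**Figure D3:**
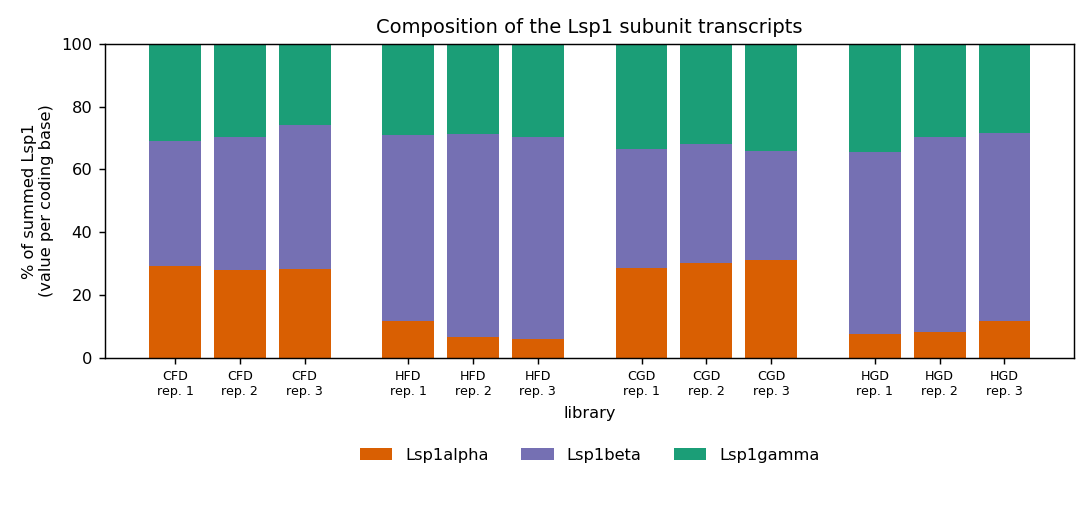
Percentage of the summed value per coding base contributed by each Lsp1 subunit in each of the 12 libraries. *Lsp1alpha* contributes 28.0% to 31.1% in the 6 control libraries and 6.05% to 11.6% in the 6 high-sugar libraries, while the *Lsp1gamma* ranges overlap.

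The ratio of pairs of subunits gave the same picture within libraries. Per coding base the ratio of *Lsp1alpha* to *Lsp1beta* was 0.617 to 0.893 in the 6 controls and 0.0940 to 0.195 in the 6 high-sugar libraries. The ratio of *Lsp1alpha* to *Lsp1gamma* was 0.859 to 1.09 in the controls and 0.205 to 0.409 on high sugar. The controls thus held nearly equal alpha and gamma signal, and no high-sugar library came close to that. The ratio of *Lsp1gamma* to *Lsp1beta* was 0.565 to 0.975 in the controls and 0.440 to 0.592 on high sugar, and these pooled ranges overlapped in part. Within each sugar it was lower on high sugar without overlap. It was 0.565 to 0.778 on CFD and 0.440 to 0.485 on HFD, and 0.842 to 0.975 on CGD and 0.474 to 0.592 on HGD.

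*Lsp2*, which encodes the subunit of the other hexamerin, was not called with either sugar. Its value was 543310, 575800 and 532690 on CFD and 850190, 629250 and 562440 on HFD. On CGD it was 535420, 509700 and 940880, and on HGD 712820, 1081500 and 973000. The lowest HFD library fell within the CFD range, and CGD replicate 3 fell within the HGD range. On the log2 scale the difference was 0.28 (SE 0.53) with fructose and 0.52 (SE 0.53) with glucose, with adjusted p of 0.759 and 0.493 by limma. The ratio of *Lsp2* to the summed Lsp1 subunits per coding base was 0.638 to 1.25 in the controls and 0.952 to 1.53 on high sugar, with overlapping ranges.

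*Fbp1*, the hexamerin receptor gene, had lower means on both high-sugar diets. Its value was 544290, 524280 and 494170 on CFD and 409680, 247290 and 240070 on HFD. All HFD libraries were below all CFD libraries, which differed little from each other. On CGD the values were 523380, 529280 and 736060, and on HGD 252870, 324410 and 533980. HGD replicate 3 exceeded CGD replicates 1 and 2, so the glucose diets overlapped on the deposited scale although they did not as shares of the signal. The log2 fold change was -0.85 (SE 0.48, adjusted p = 0.241 by limma) with fructose and -0.74 (SE 0.48, adjusted p = 0.264 by limma) with glucose. Over both sugars it was -0.79 (SE 0.34, adjusted p = 0.0772 by limma), which missed the threshold. It passed with library totals as the scale (adjusted p = 0.0107 by limma), with no intensity trend (0.00882), with limma-voom on recovered reads (0.00604), with a minimum mean value of 10 (0.0349) and without HFD replicate 1 (-0.92, 0.0453).

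The receptor and the storage proteins were also set against each other within each library. The ratio of *Fbp1* to *Lsp2* per coding base was 0.533 to 0.707 in the 6 controls and 0.204 to 0.374 in the 6 high-sugar libraries, without overlap. The ratio of *Fbp1* to the summed Lsp1 subunits was 0.340 to 0.832 in the controls and 0.255 to 0.528 on high sugar, and these pooled ranges overlapped. With fructose alone it did not overlap, at 0.503 to 0.666 on CFD and 0.255 to 0.444 on HFD. With glucose it did, at 0.340 to 0.832 on CGD and 0.282 to 0.528 on HGD. Within HFD replicate 1 was highest for *Fbp1*, *Lsp2* and all 3 Lsp1 subunits, and within HGD replicate 3 was highest for *Fbp1* and *Lsp1alpha*.

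*Fbp2* rose over both sugars. Its value was 135030, 146380 and 145980 on CFD and 208800, 241930 and 200200 on HFD. On CGD it was 134330, 126720 and 208870, and on HGD 311020, 257520 and 230120. Every high-sugar library exceeded every control library of its sugar, narrowly so for CGD replicate 3. The difference was 0.60 log2 units (SE 0.35, adjusted p = 0.256 by limma) with fructose and 0.79 (SE 0.35, adjusted p = 0.107 by limma) with glucose. Over both sugars it was 0.70 (SE 0.25, adjusted p = 0.0383 by limma), a 1.62-fold higher level. Per coding base the ratio of *Fbp1* to *Fbp2* was 0.842 to 1.04 in the 6 controls and 0.202 to 0.577 on high sugar.

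The call of *Fbp2* over both sugars was close to the threshold. It was lost without CFD replicate 1 (adjusted p = 0.0962 by limma), 2 (0.0734) or 3 (0.0832), HFD replicate 2 (0.0713) or 3 (0.0504), CGD replicate 1 (0.0909) or 2 (0.0915) and HGD replicate 2 (0.0566) or 3 (0.05002), with values between 0.63 and 0.75. It was also lost with library totals as the scale (0.49, adjusted p = 0.0713 by limma) and with totals without ribosomal RNA (0.49, 0.0523). The glucose difference alone passed without CGD replicate 3 (1.02, adjusted p = 0.0336 by limma). The SD that limma assigned to *Fbp2*, 0.434 log2 units, was above the gene's own residual SD of 0.239, because the fit moves each gene's spread towards that of genes of similar abundance. With no intensity trend the SD was 0.244 and the value over both sugars had an adjusted p of 0.00259 by limma. In the main fit the assigned SD was also above the own SD for *Lsp2* (0.655 against 0.331) and *Fbp1* (0.590 against 0.378). The same held for *Lsp1beta* (0.628 against 0.521) and *Lsp1gamma* (0.601 against 0.573). For *Lsp1alpha* the assigned SD was below its own (0.659 against 0.738).

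**Figure D4:**
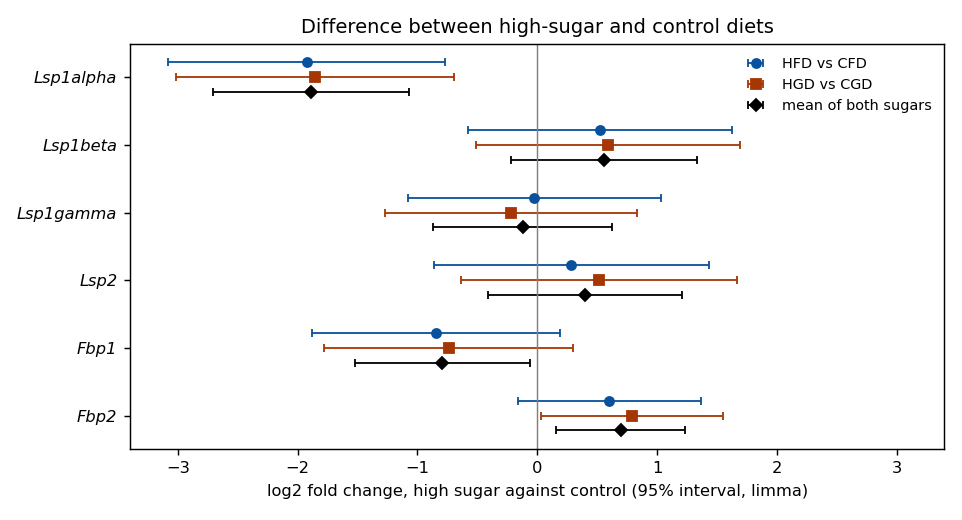
Log2 fold change of each gene between high sugar and control with its 95% interval by limma, for fructose (circles), glucose (squares) and the mean of both (diamonds), from all 12 libraries. The intervals of *Lsp1alpha* lie wholly below 0 for both sugars, and over both sugars that of *Fbp2* runs from 0.16 to 1.24.

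Over both sugars 2 of the 6 genes were called, *Lsp1alpha* lower and *Fbp2* higher, where 41.9% of all genes were called, 20.7% lower and 21.2% higher. With library totals as the scale, which moved the median of all genes by -0.21 log2 units, the balance of calls over all genes went from 2015 higher and 1970 lower to 881 higher and 2466 lower. It went to 414 higher and 952 lower with fructose and to 642 higher and 1363 lower with glucose, from 893 and 943 and from 1584 and 1225. *Lsp1alpha* had a value of -1.89 on the log2 scale (SE 0.38, adjusted p = 0.00147 by limma), a 3.71-fold lower level, and it kept this call in all 24 alternatives, with adjusted p from 6.58e-05 to 0.00842. Without HFD replicate 2, CGD replicate 3 and HGD replicate 1 together, a setting added after seeing the data, it was -1.52 (adjusted p = 0.00842 by limma). In that setting *Lsp1beta* was 0.78 (adjusted p = 0.0443), *Fbp2* 0.71 (adjusted p = 0.0119) and *Fbp1* -0.53 (adjusted p = 0.150). The values of the 2 genes were also free of overlap with either sugar, where 11.8% of all genes were lower and 13.9% higher without overlap.

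The abundant transcripts were also ranked by their change. Among the 100 most abundant genes it had the largest fall with fructose, with glucose and over both sugars. Of these 100 genes 6 were called lower and 14 higher on HFD, and 4 were called lower and 27 higher on HGD. *Fbp1* had the fall of rank 7 with fructose and of rank 8 with glucose, and *Fbp2* had the rise of rank 19 and of rank 17. Among all 9500 genes the *Lsp1alpha* fall ranked 113 with fructose and 144 with glucose.

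**Figure D5:**
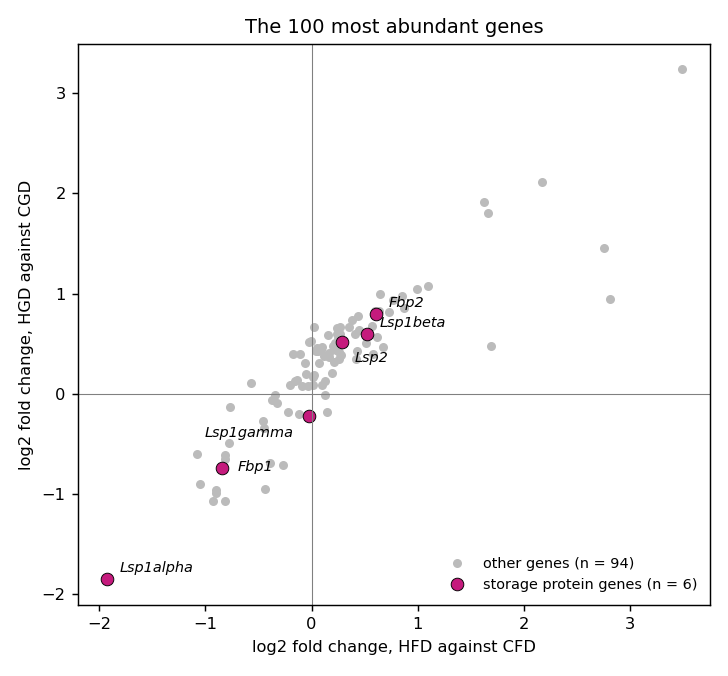
Log2 fold change with fructose (horizontal) against that with glucose (vertical) for the 100 genes of highest mean value, with the 6 storage protein genes coloured and the other 94 in grey. *Lsp1alpha* is the lowest point on both axes, at -1.92 and -1.85.

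The 2 sugars were then compared. The difference between the glucose and the fructose response was at most 0.23 log2 units in size for any member (*Lsp2*, 95% interval -1.39 to 1.86). With single libraries left out the widest member difference ran from 0.21 to 0.61. Between CGD and CFD the widest difference was 0.31 (*Lsp1gamma*, 95% interval -0.75 to 1.36), and between HGD and HFD it was 0.25 (*Lsp1alpha*, 95% interval -0.91 to 1.40). With single libraries left out these 2 values ran from 0.16 to 0.68 and from 0.21 to 0.76. No member and 0 of 9500 genes (0%) passed the test in these 3 comparisons by limma, with 405, 407 and 484 genes at an unadjusted p under 0.05 and 0 calls by limma-voom. The edgeR test in the paper did call some genes between CFD and CGD, and *CG6602* between HGD and HFD. None of those genes is a member. The intervals given above span more than 2 log2 units. Those of *Fbp2* were narrower, from -0.86 to 0.67 between CGD and CFD and from -0.67 to 0.86 between HGD and HFD. Intervals of such widths do not show that the sugars act alike. The comparisons of CGD with CFD and of HGD with HFD rest on a factor of 0.874 that was set on the glucose values. The difference between the responses needs no such factor.

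For each member the 3 other genes with the most similar pattern over the 12 libraries, after centring within each sugar, were looked up among the 4822 genes whose mean value reached 100. These correlations are descriptions over libraries that share their diets. *Lsp1alpha* was nearest to the caspase gene *decay* (Pearson r = 0.985), the serine protease gene *Tequila* (0.981) and *CG7997* (0.979). *Lsp1beta* was nearest to the sugar transporter gene *sut1* (0.972), the serpin gene *Spn28D* (0.965) and *CG5261* (0.958). *Lsp1gamma* was nearest to *CG5210* (0.943), the signal peptidase gene *Spase25* (0.934) and *atl*, which encodes atlastin of the endoplasmic reticulum (0.931). The members themselves were left out of this search. Between the subunits, r was -0.055 for *Lsp1alpha* with *Lsp1beta*, 0.58 for *Lsp1alpha* with *Lsp1gamma* and 0.72 for *Lsp1beta* with *Lsp1gamma*. *Lsp2* was nearest to the proton pump gene *VhaSFD* (0.979), *CG7920* (0.977) and *CG4670* (0.952). *Fbp1* was nearest to *CG7342* (0.994), the ornithine aminotransferase gene *Oat* (0.977) and the tetraspanin gene *Tsp42Ej* (0.976). *Fbp2* was nearest to the globin gene *glob1* (0.983), *Cct1*, of phosphatidylcholine synthesis (0.982) and the ornithine decarboxylase gene *Odc2* (0.978).

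The regulators linked to storage protein genes showed calls in the upward direction. Of 20 measured genes for ecdysone and juvenile hormone signalling and for fat body transcription factors, 2 were called higher on HFD, 5 on HGD and 7 over both sugars, and none was called lower. Over both sugars 21.2% of all genes were called higher. The median log2 fold change over both sugars was 0.20, against -0.01 over all genes. With library totals as the scale the median of all genes moved by -0.21, so a rise of this size depends on the scaling. The summed share of signal of the list was not higher on high sugar. Its median was 0.216% on CFD and 0.196% on HFD, and 0.181% on CGD and 0.157% on HGD. The nuclear receptor gene *ftz-f1*, a competence factor for metamorphosis, rose by 0.74 (SE 0.13, adjusted p = 4.51e-04 by limma) over both sugars. The juvenile hormone receptor gene *gce* rose by 0.65 (SE 0.09), *Aef1*, a repressor that binds fat body enhancers, by 0.56 (SE 0.16), and the Myc gene *dm* by 0.50 (SE 0.17). The ecdysone receptor gene *EcR* rose by 0.39 (SE 0.10). The most abundant of the list, the ecdysone response gene *br*, was at 0.04 (SE 0.16), *Eip75B* at 0.11 (SE 0.14) and *Eip74EF* at 0.18 (SE 0.13), and these 3 were not called.

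The endocytosis and lysosome list, the route by which hexamerins are taken up and degraded, held 21 measured genes. Over both sugars 5 were called higher and 1 lower, where 21.2% and 20.7% of all genes were, so the share called higher was near that of all genes. The median log2 fold change was 0.12. The lysosomal protease gene *Cp1*, a cathepsin L, was at 2439 ± 583 and 5041 ± 377 with control and high fructose, and at 2516 ± 261 and 5206 ± 586 with control and high glucose (SD, n = 3 each). It rose by 1.06 (SE 0.12, adjusted p = 2.09e-05 by limma) over both sugars. The cathepsin B gene *CtsB1* rose by 0.71 (SE 0.11), the proton pump gene *Vha55* by 0.57 (SE 0.11) and the clathrin heavy chain gene *Chc* by 0.40 (SE 0.11). The lysosomal membrane gene *Lamp1* fell by 0.58 on the log2 scale (SE 0.18), while *cathD* was at 0.12 (SE 0.17) and the recycling gene *Rab11* at 0.04 (SE 0.11), both without a call.

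Of 18 measured genes for other secreted proteins of the hemolymph 5 were called higher and 4 lower over both sugars, where 21.2% and 20.7% of all genes were. Their median log2 fold change was 0.06. The prophenoloxidases belong to the same protein superfamily as the hexamerins. Of them *proPO-A1* and *PO45*, which are made in crystal cells, were called lower. The prophenoloxidase gene *CG42640*, named for its family, was not called (-0.29, SE 0.26, adjusted p = 0.402 by limma over both sugars). *proPO-A1* was at 973 ± 680 and 164 ± 41.3 with control and high fructose, and at 1470 ± 634 and 279 ± 52.1 with control and high glucose (SD, n = 3 each). Over both sugars its log2 fold change was -2.34 (SE 0.28) and that of *PO45* -1.77 (SE 0.20). Of these 2 genes only *PO45* was counted among the 7 measured hemocyte markers, because *proPO-A1* was not matched in that list. The hemocyte list held calls in either direction. The peroxidasin gene *Pxn* in it, named after its values were seen, was higher by 1.76 (SE 0.19) over both sugars. The part of hemocytes in these values was not tested. The yolk protein gene *Yp3* was at -3.03 (SE 0.66). The ferritin gene *Fer1HCH* rose by 0.99 (SE 0.11) and the collagen gene *Cg25C* by 0.71 (SE 0.18). The abundant *Obp99b* was at 0.27 (SE 0.27), the apolipophorin gene *Rfabg* at -0.49 (SE 0.27) and the transferrin gene *Tsf1* at 0.42 (SE 0.20), and these 3 were not called.

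Fbp2 is related to alcohol dehydrogenase, whose gene *Adh* had low values in the deposited table, from 3.51 to 45.4. The related gene *Adhr* was not found there. Whether reads of *Adh* were lost in the counting was not tested, so these values are not read as the level of the transcript or the enzyme. On the log2 scale *Adh* differed by 0.58 over both sugars (SE 0.38, adjusted p = 0.233 by limma). Of the 9 fat body markers 6 were called higher and none lower over both sugars, where 21.2% of all genes were called higher. The adipokinetic hormone receptor gene, listed as *GRHR*, rose by 1.60 (SE 0.17), the desaturase gene *desat1* by 1.50 (SE 0.25), the lipase gene *bmm* by 1.37 (SE 0.17) and the lipid droplet gene *Lsd-1* by 1.06 (SE 0.16). *Dcr-2*, which the transgene supplies, was at 0.38 (SE 0.17, adjusted p = 0.0916 by limma).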

How the data were processed

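Per the file headers, the authors deposited 1 table of 9500 genes and 12 libraries. The deposited signal is a normalized count per gene that the authors had adjusted within each sugar to that sugar's common library size. The paper names TopHat, HTSeq and edgeR, while Cufflinks 1.1.0, Bowtie 0.12.7, TopHat 1.3.2 and dm3 appear in the submitters' processing notes. The planned count test could not be used on these values. Instead the 4 diet groups (12 libraries) were fitted with limma 3.58.1 in R 4.3.3, using lmFit and eBayes with trend, on log2(value + 1). P-values were adjusted after Benjamini-Hochberg over 9500 genes, with a threshold of 0.05. A minimum mean value of 1 removed 0 genes. Such fold changes understate changes of low genes. Glucose values were multiplied by 0.874, the median ratio of the fructose to the glucose means, which affects comparisons between sugars, abundance ranks and levels per kilobase, and no comparison within a sugar. Whole reads were recovered by inverting the adjustment (Python 3.11.15, numpy 2.4.6), which returned at least 99.9895% of values within a relative or absolute difference of 0.0001. Recovered counts of very abundant genes are approximate, and intervals cover the spread between these libraries. Shares are percentages of a library's summed signal. The model was tested on simulated data.

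The members and gene lists were chosen with earlier results of these data known. Named genes were the 6 members, the 4 most abundant and up to 4 most changed called genes of each list, and the 3 nearest genes by Pearson r. *EcR* and *Chc* fall under abundance. Alternatives were other scalings, pseudocounts of 0.1 and 5, no filter or a minimum of 10, only the diets compared, a replicate block, no intensity trend and each library left out. No factor between sugars, limma-voom on recovered reads and leaving out 3 libraries together were added after seeing the data. Positions are from BDGP6.54, in which 9073 gene IDs were found. No sequence is shown.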

Additional observations from a re-analysis of the deposited data

How the results depend on the processing

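With library totals as the scale the median of all genes moved by -0.21 on the log2 scale with fructose, and relative to that shift every member kept its direction. *Fbp2* over both sugars was then 0.49 (adjusted p = 0.0713 by limma). Companion list calls for fructose fell from 17 to 11 with library totals and to 11 with totals without ribosomal RNA. The member calls for glucose went from 1 to 2 with no intensity trend and to 2 with limma-voom. Same-numbered replicates did not deviate together (correlations from -0.36 to 0.21), and with the replicate block 1 member instead of 2 was called over both sugars, *Fbp2* having an adjusted p of 0.0756 by limma. The block changed no other member's call.

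With single libraries left out, 0 to 1 members were called with fructose, 0 to 1 with glucose and 1 to 3 over both sugars, and the fructose list calls ran from 11 to 18. *Lsp1gamma* then ran from -0.24 to 0.28 with fructose, from -0.59 to 0.32 with glucose and from -0.31 to 0.15 over both sugars. Without HFD replicate 2, CGD replicate 3 and HGD replicate 1 together it was 0.30 with glucose and 0.092 over both sugars, and *Lsp1alpha* with glucose was -1.13 (adjusted p = 0.141 by limma). Relative to the signal of all other genes, the members amounted to 35.1% ± 2.67 with control and 29.7% ± 10.7 with high fructose. With glucose they amounted to 38.9% ± 11.8 and 32.9% ± 7.82 (SD, n = 3 each). The libraries overlapped with either sugar. The cause of the differences between diets was not tested. With 3 libraries per diet and CGD replicate 3 apart from its companions, the Lsp1 subunits have wide intervals.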
